A study of Bos taurus with 14 samples.

Results

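The collagen genes of cattle were examined in skin fibroblasts, in blastocysts and in bovine embryonic stem cells (bESC) over culture. The members were taken by symbol alone: COL, a type number, A and a chain number, without a numbered copy suffix. This gave 43 genes among the 23159 features of the fibroblast, blastocyst and P10 stem cell files, and 42 among the 24590 features of the later stem cell files, where COL6A6 is not listed. COL24A1 was not analysed here. The rule itself uses no measured value.

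Collagens are extracellular proteins in which 3 chains wind into a triple helix. Fibrillar types (I, II, III, V, XI and XXVII) build the cables of dermis, bone and cartilage, type IV builds the sheet under epithelia, and type VI makes beaded filaments around cells. Fibril-associated types (FACIT) coat other fibrils, multiplexins (XV and XVIII) sit at basement membranes, and a few types stay anchored in the plasma membrane. Dermal fibroblasts are the classical source of types I, III and VI, whereas embryos before implantation are known for laying down basement membrane.

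Total RNA from 14 samples was sequenced. The stem cells, CTFR-bESC, came from blastocysts and were kept on a feeder layer of mouse embryonic fibroblasts. Their base medium held no growth factors of its own and was supplemented with human FGF2 and the WNT inhibitor IWR1. Line A gave libraries at P10, P13, P23, P35 and P45 (P for passage) and line B at P10, P12, P24, P35 and P46, 1 each, so the libraries of a line are serial samples of 1 culture. The controls were 2 pools of 10 in vivo blastocysts, in which trophectoderm, hypoblast and epiblast are mixed, and 2 lines of skin fibroblasts grown without any treatment named in the labels. In such bulk RNA, fewer cells of a type and less RNA per cell cannot be told apart. Each of the 3 groups compared thus has 2 samples, from 2 lines or 2 pools. For the pools no label says how separate the embryos were, and for the serial passages a p-value reflects only how far libraries of 2 cultures spread.

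Values are RPKM, read counts scaled to gene length and library size, and reads per library are unknown. From the steps of low values, depth relative to fibroblast line 1 was 1.021 to 1.548 in the other libraries of the first file set. Relative to line A at P13 it was 0.712 to 1.021 in the other libraries of the second. A value of 0 is given as listed at 0, because GAPDH, a gene that all cells use, was also listed at 0 in all 14 libraries. In the blastocyst pools 2 features held 65.8% and 64.0% of the summed RPKM, against 2.08% to 3.36% in the other libraries. Whether and how far this lowers the other blastocyst values was not tested. Of 18 non-collagen fibroblast and mesenchyme markers, 8 were at 0 in each blastocyst pool and none in any other library. Their summed RPKM was 19.7 and 24.97 in blastocysts and 17850 and 17297 in fibroblasts. It was 741 and 1118 at P10 in lines A and B, and 1016 to 1518 later. Most of the P10 sum was the marker VIM, at 553 and 796 RPKM. The 6 pluripotency markers listed in both sets summed to 58.8 and 68.9 in blastocysts, to 0.627 and 2.16 in fibroblasts, with 3 of the 6 at 0, and to 523 to 684 in the stem cells. The part of feeder reads in the stem cell collagen values was not tested.

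Collagen RNA was abundant in fibroblasts, intermediate in stem cells and scarce in blastocysts. The 43 genes summed to 5690 and 7291 RPKM in fibroblast lines 1 and 2, which is 1.31% and 1.81% of all RPKM. At P10 they summed to 422 RPKM for line A and 595 RPKM for line B, or 0.121% and 0.163%. Later passages ranged from 566 to 712 RPKM, or 0.113% to 0.146%. In blastocysts the sum was 15.96 and 20.15 RPKM, and without the 2 dominant features it was 0.0116% and 0.0148% of the rest, still below every other library.

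The makeup also differed. In fibroblasts, fibrillar genes held 62.6% and 64.3% of the collagen sum and type VI 30.8% and 22.9%, led by COL1A1, COL1A2 and COL6A1. In the 10 stem cell libraries, type VI held 1.34% to 5.46%, fibrillar genes 43.5% to 55.2%, multiplexins 18.9% to 35.7% and the type IV network 9.02% to 16.8%. The type IV network also held 17.4% and 10.9% in blastocysts, against 0.898% and 1.22% in fibroblasts. These are shares of very unlike totals. In RPKM the type IV sum was 2.78 and 2.20 in blastocysts and 51.1 and 88.8 in fibroblasts. It was 70.7 and 97.3 at P10 and 52.0 to 80.0 later, which overlapped the fibroblasts. The leading gene was COL2A1 or COL18A1 in each stem cell library. In blastocysts FACIT genes held 59.985% and 72.6%, nearly all of it COL12A1 at 59.2% and 72.3%.

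**Figure D1:**
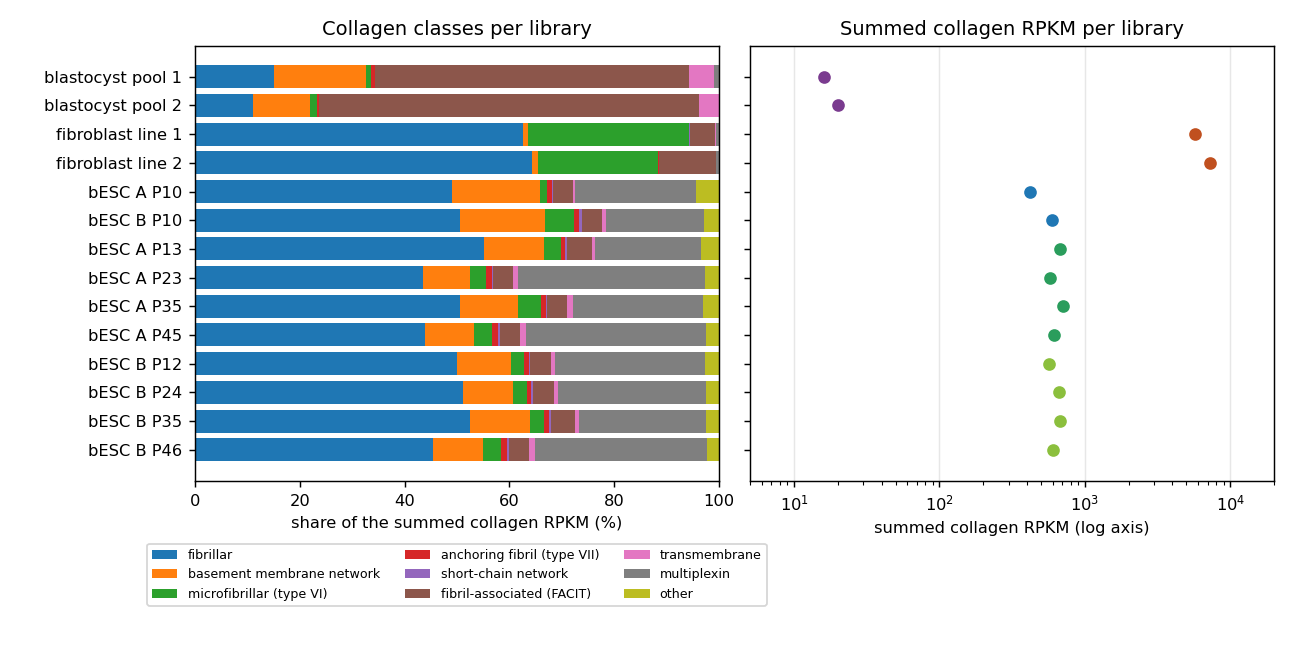
Left, share of the summed collagen RPKM held by each collagen class (percent) in each of the 14 libraries. Right, the summed collagen RPKM of each library on a log axis. Fibrillar and type VI genes fill the fibroblast bars, and multiplexin genes take a visible share in stem cells. Type IV genes take a visible share in stem cells and blastocysts, although their sum in RPKM overlaps between stem cells and fibroblasts and is lowest in blastocysts. FACIT genes fill most of the blastocyst bars, whose sums of 15.96 and 20.15 are the lowest.

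Of the 43 genes, 21 reached 10 RPKM in at least 1 library, and 9 stayed under 1 RPKM in all libraries where they were listed: COL4A3, COL4A4, COL6A5, COL6A6, COL10A1, COL19A1, COL20A1, COL22A1 and COL28A1. At 1 RPKM or more in every library of the group stood 3 genes in blastocysts (COL1A2, COL4A1 and COL12A1), 19 in fibroblasts, 23 at P10 and 26 of 42 later. In blastocysts 17 genes were listed at 0 in both pools.

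The first comparison asked how stem cells at P10 differ from fibroblasts. Type I, III and VI chains, which dominate in skin fibroblasts, were lower at P10, and COL2A1, COL4A5, COL4A6, COL18A1 and COL26A1, at 0.716 RPKM or less in fibroblasts, were higher. By limma with Benjamini-Hochberg adjustment over 11761 features, 9 collagen genes were called higher (31.0% of 29 tested, where 35.4% of all features were) and 14 lower (48.3%, where 21.9% were). In either direction, 57.3% of all features were called. A further 6 were not called, and 14 were not tested because they missed 1 RPKM in 2 libraries of this fit. All 9 higher genes were under 1 RPKM in both fibroblast lines and passed that filter through P10 alone, so their count supports nothing by itself. COL8A2 and COL14A1, among the lower genes, passed through fibroblasts alone. The median change of the 29 tested genes was -0.98 relative to the median gene, whose own change was 0.23. All changes here are on the log2(RPKM + 1) scale, relative to the median gene of the comparison, with the standard error (SE) of the fit, while p tests the change before that subtraction. Of all calls, 61.8% were higher, against 51.8% with median-of-ratios scaling, and all 23 collagen calls held under each of 3 other scalings.

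**Figure D2:**
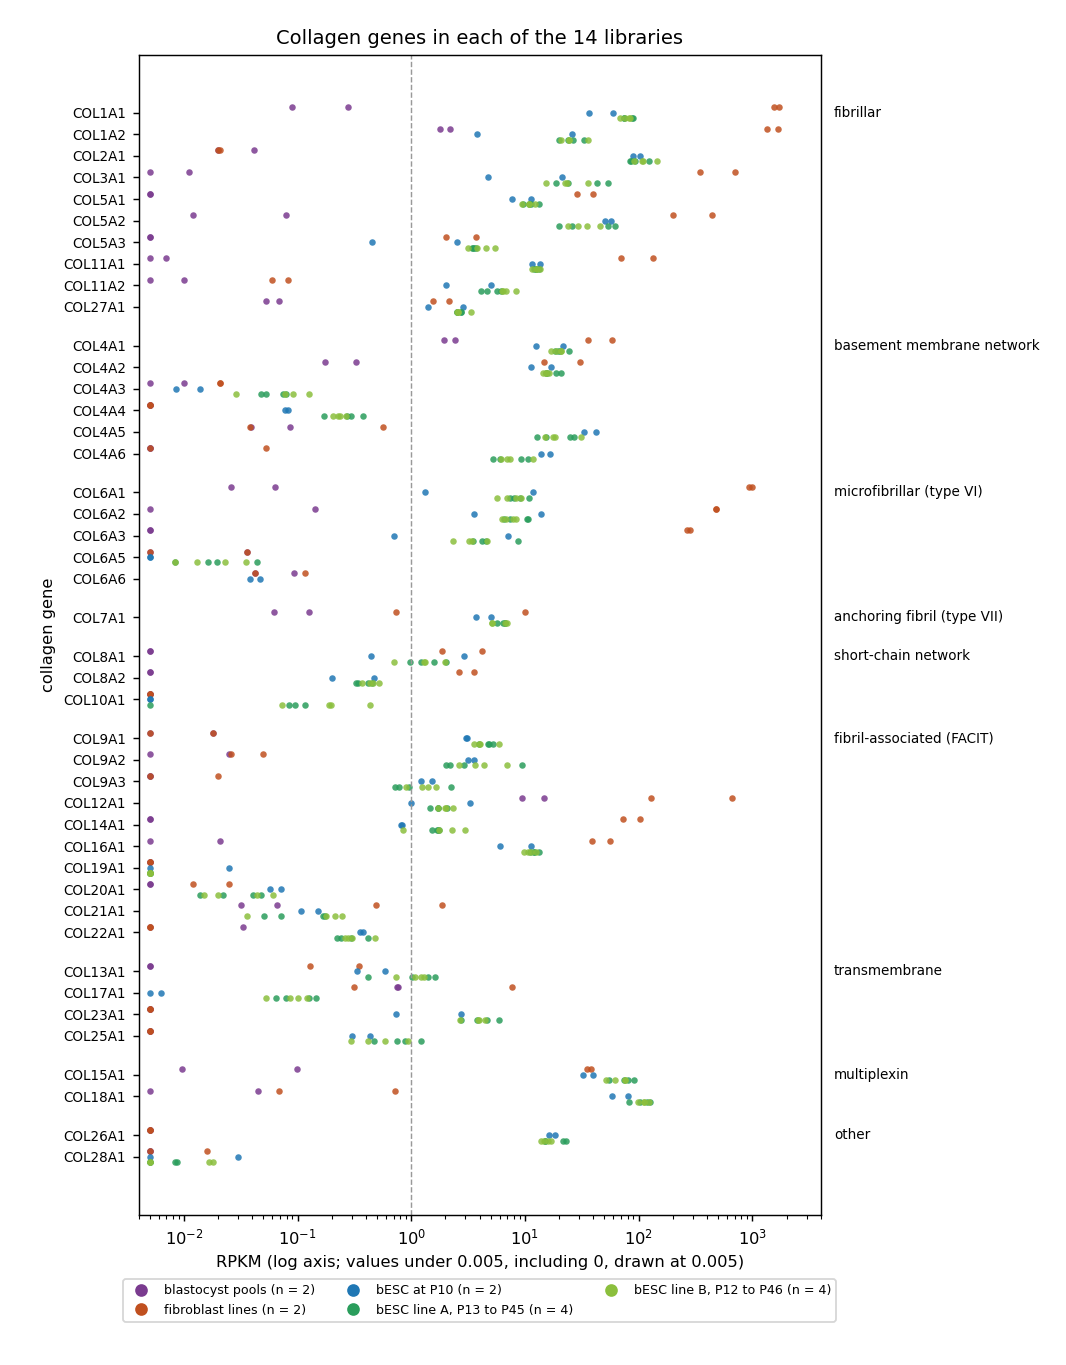
RPKM of each collagen gene in each library, on a log axis, with genes grouped by class. Each point is 1 library, values under 0.005 are drawn at 0.005, and the dashed line marks 1 RPKM. COL1A1, COL1A2, COL3A1 and the type VI chains COL6A1, COL6A2 and COL6A3 lie far to the right in fibroblasts. COL2A1, COL4A5, COL4A6, COL18A1 and COL26A1 lie to the right in stem cells alone.

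Among the 10 fibrillar genes, 2 were called higher at P10 than in fibroblasts and 6 lower. COL1A1 encodes the chain of which type I collagen holds a pair. It measured 1564 and 1706 RPKM in the 2 fibroblast lines, 36.5 and 59.3 at P10 (lines A and B throughout), 0.089 and 0.28 in the blastocyst pools, and 68.8 to 89.8 (median 78.9) later. All 3 kinds of sample were apart from each other, and the change at P10 was -5.33 ± 0.25 (adjusted p = 3.2e-05 by limma). COL1A2, the partner chain, measured 1348 and 1667 RPKM in fibroblasts, 3.76 and 26.02 at P10, 2.21 and 1.78 in blastocysts, and 19.9 to 35.5 later. Line A at P10 thus lay much nearer to the blastocysts than line B did. Its change against fibroblasts was -7.28 ± 0.72 (adjusted p = 0.000336 by limma).

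COL3A1, the single chain of type III collagen in pliable tissue, measured 349 and 700 RPKM in fibroblasts, 4.75 and 21.2 at P10, 0 and 0.011 in blastocysts, and 15.3 to 54.1 later. The change was -5.68 ± 0.63 (adjusted p = 0.000547 by limma), and P10, fibroblasts and blastocysts did not overlap, while the later libraries overlapped P10. Type V chains join type I fibrils and set their diameter. COL5A1 measured 28.9 and 39.4 RPKM in fibroblasts, 7.62 and 11.4 at P10, 0 in both blastocyst pools and 9.42 to 13.2 later, a change of -1.98 ± 0.26 (adjusted p = 0.00155 by limma). COL5A2 measured 199 and 440 RPKM in fibroblasts, 50.2 and 57.1 at P10, 0.012 and 0.079 in blastocysts and 19.8 to 61.9 later, a change of -2.68 ± 0.36 (adjusted p = 0.00143 by limma). The P10 lines were nearly equal for COL5A2, in contrast to COL1A2 and COL3A1. COL5A3 measured 0.454 and 2.52 at P10 and 3.74 and 2.03 in fibroblasts, which overlapped, and it was not called.

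COL2A1, the chain of cartilage type II collagen that notochord and some embryonic epithelia also make, had the reverse pattern. It measured 0.021 and 0.02 RPKM in fibroblasts, 0.041 and 0.02 in blastocysts, and 89.1 and 102 at P10. No stem cell library lay under 83.7 RPKM. The change against fibroblasts was 6.33 ± 0.19 (adjusted p = 1.65e-05 by limma), the smallest adjusted p of any collagen gene in this comparison. Of 6 cartilage markers, the proteoglycan core ACAN stayed at 0.0057 to 0.032 RPKM and the matrix gene MATN1 at 0 to 0.268 in all 10 stem cell libraries, whereas the transcription factor SOX9 measured 4.99 to 12.5. In each stem cell library 2 or 3 of the 6 stood at 1 RPKM or more, so SOX9 was not alone. In each control library 0 did. The summed list stood at 9.4 and 9.56 RPKM at P10 and at 11.3 to 18.3 later. It stood at 0.585 and 1.2 in fibroblasts and at 0.339 and 0.036 in blastocysts.

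Type XI chains enter type II fibrils in cartilage and are found in other tissues too. The pair split. COL11A1 measured 69.5 and 133 RPKM in fibroblasts and 11.5 and 13.7 at P10, a change of -3.08 ± 0.31 (adjusted p = 0.00046 by limma), and 0 and 0.007 in blastocysts. COL11A2 measured 0.082 and 0.06 in fibroblasts, 2.01 and 5.08 at P10 and 0.01 and 0 in blastocysts, a change of 1.77 ± 0.31 (adjusted p = 0.00193 by limma). COL27A1, a fibrillar chain of cartilage, overlapped between P10 (1.4 and 2.86 RPKM) and fibroblasts (1.57 and 2.17) and was not called.

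In the type IV network, the chains used by nearly all basement membranes and the COL4A5 and COL4A6 pair went apart. COL4A1 measured 35.7 and 58.0 RPKM in fibroblasts, 12.5 and 21.5 at P10, 2.41 and 1.94 in blastocysts and 17.1 to 24.6 later. Its change of -1.65 ± 0.33 was called (adjusted p = 0.0101 by limma), but not without line A at P10 (adjusted p = 0.0839) or without fibroblast line 2 (adjusted p = 0.0597). COL4A2, its partner, measured 14.8 and 30.7 RPKM in fibroblasts, 11.3 and 17.05 at P10, 0.327 and 0.175 in blastocysts and 14.3 to 20.7 later. P10 and fibroblasts overlapped, and COL4A2 was not called (adjusted p = 0.215 by limma).

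COL4A5, a chain of kidney, skin and smooth muscle basement membranes, measured 0.565 and 0.038 RPKM in fibroblasts, 33.1 and 42.1 at P10 and 0.039 and 0.085 in blastocysts. Its change was 4.68 ± 0.26 (adjusted p = 3.69e-05 by limma). COL4A6 measured 0.053 and 0 RPKM in fibroblasts, 13.8 and 16.5 at P10 and 0 in both pools, a change of 3.74 ± 0.18 (adjusted p = 2.6e-05 by limma). Both stood higher in each stem cell library than in any control library. COL4A3 and COL4A4, the other chains of the kidney network, did not exceed 0.127 and 0.377 RPKM anywhere.

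All 3 tested type VI chains were lower at P10 than in fibroblasts, and line A was far under line B in each. COL6A1 measured 991 and 926 RPKM in fibroblasts, 1.33 and 11.7 at P10, 0.026 and 0.063 in blastocysts and 5.73 to 10.9 later, a change of -7.69 ± 0.70 (adjusted p = 0.000236 by limma). COL6A2 measured 479 and 478 RPKM in fibroblasts, 3.59 and 13.7 at P10, 0 and 0.143 in blastocysts and 6.30 to 10.6 later, a change of -6.10 ± 0.50 (adjusted p = 0.000161 by limma). COL6A3, the largest of these chains, measured 282 and 264 RPKM in fibroblasts, 0.701 and 7.07 at P10, 0 in both pools and 2.32 to 8.65 later, a change of -6.44 ± 0.65 (adjusted p = 0.000364 by limma). The remaining type VI chains, COL6A5 and COL6A6, did not exceed 0.044 and 0.117 RPKM in any library.

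FACIT genes divided evenly, 3 called higher and 3 lower of 6 tested. COL12A1 and COL14A1 coat type I fibrils in dermis and tendon. COL12A1 measured 128 and 661 RPKM in fibroblasts, the widest gap between these lines among genes above 100 RPKM in both, 0.99 and 3.31 at P10, 9.44 and 14.6 in blastocysts and 1.47 to 2.31 later. Its change against fibroblasts was -6.87 ± 0.76 (adjusted p = 0.000521 by limma). COL14A1 measured 104 and 73.4 RPKM in fibroblasts, 0.822 and 0.809 at P10, 0 in both pools and 0.846 to 2.95 later, a change of -5.83 ± 0.23 (adjusted p = 2.32e-05 by limma). COL16A1, found near fibrils and basement membranes, measured 38.7 and 56.1 RPKM in fibroblasts, 6.01 and 11.2 at P10, 0.021 and 0 in blastocysts and 9.73 to 13.2 later, a change of -2.59 ± 0.32 (adjusted p = 0.00105 by limma).

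The type IX chains, which decorate type II fibrils, were called higher at P10 at low levels. Fibroblasts did not exceed 0.05 RPKM in any of the 3. At P10 COL9A1 measured 3.04 and 3.11 RPKM (adjusted p = 7.08e-05 by limma), COL9A2 3.58 and 3.19 (adjusted p = 7.48e-05) and COL9A3 1.23 and 1.52 (adjusted p = 0.000396). Changes were 1.78 ± 0.13, 1.85 ± 0.14 and 1.00 ± 0.13. The 4 other FACIT genes were not tested: COL19A1, COL20A1 and COL22A1 did not reach 1 RPKM, and COL21A1 did so in fibroblast line 1 alone, at 1.88.

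The multiplexins, whose C-terminal fragments include endostatin from COL18A1, also split. COL18A1 measured 0.069 and 0.716 RPKM in fibroblasts, 0.045 and 0 in blastocysts and 58.2 and 80.2 at P10, a change of 5.45 ± 0.29 (adjusted p = 3.43e-05 by limma). COL15A1 measured 35.0 and 38.0 RPKM in fibroblasts and 39.5 and 32.2 at P10, which overlapped. Its change of -0.26 ± 0.19 was not called (adjusted p = 0.901 by limma). Before subtraction of the median gene, the sign of its fitted change turned with scaling. In blastocysts COL15A1 stood at 0.098 and 0.0096. COL26A1, a secreted collagen with an EMI domain, was listed at 0 in both fibroblast lines and both pools and at 18.3 and 16.3 RPKM at P10 (adjusted p = 2.32e-05 by limma). It ranged from 13.9 to 23.1 later.

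The remaining types were low or uneven between the fibroblast lines. COL7A1, which makes the anchoring fibrils of skin, measured 0.731 and 10.0 RPKM in fibroblast lines 1 and 2 and 3.70 and 5.08 at P10, which lay between them, and was not called (adjusted p = 0.77 by limma). It stood at 0.126 and 0.062 in blastocysts and at 5.11 to 6.90 later. COL17A1, a transmembrane collagen of the keratinocyte hemidesmosome, showed the opposite order, with 7.66 RPKM in line 1 and 0.312 in line 2, 0.766 and 0.756 in blastocysts and at most 0.146 in stem cells. The keratinocyte marker list summed to 7.39 RPKM in fibroblast line 1, with KRT5 at 3.76 and KRT14 at 2. In line 2 the list summed to 0.268, with KRT5 at 0.092. The list did not follow COL17A1 across groups. It summed to 30.8 and 33.9 in blastocysts and to 11.6 to 28.7 in stem cells, where 1 of its genes reached 1 RPKM in each library. Its part in the COL17A1 difference was not tested. The short-chain gene COL8A2 measured 2.64 and 3.55 RPKM in fibroblasts and 0.202 and 0.473 at P10, a change of -1.85 ± 0.18 (adjusted p = 0.000525 by limma). COL8A1 overlapped, with 4.18 and 1.88 in fibroblasts and 0.444 and 2.90 at P10, and was not called. The transmembrane genes COL23A1 and COL25A1 were listed at 0 in all 4 control libraries. COL23A1 stood at 0.728 and 2.74 RPKM at P10 and 2.68 to 5.91 later, COL25A1 at 0.297 to 1.21 across stem cells, and COL13A1 at 0.335 to 1.62 there.

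The second comparison set blastocysts against fibroblasts. No collagen gene was called higher, where 11% of all features were, and 19 were called lower, where 63.4% were, by limma with Benjamini-Hochberg adjustment; in either direction 74.4% of all features were called. At an unadjusted p under 0.05 stood 20 of the 29, against 76.2% of all features. These counts cannot be read against all features: 9 of the 29 were under 1 RPKM in both pools and both fibroblast lines and passed the filter through P10 alone, and of the other 20, 19 were lower. With 26 of the 29 under 1 RPKM in both pools, few could have been called higher in blastocysts. The median change was -2.73 relative to the median gene, which itself stood at -1.15. Of all calls 14.7% were higher, against 45.4% when the 2 dominant features were left out of the scaling and 51.9% with quantile normalization. Under these scalings and the median of ratios, still none of the 29 was called higher, and 18 of the 19 stayed lower; COL27A1 was lost with quantile normalization. COL8A1 lost its call without either blastocyst pool or without fibroblast line 1.

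COL12A1 was the most abundant collagen of the blastocyst pools and yet lower there than in fibroblasts, by -3.37 ± 0.76 relative to the median gene (adjusted p = 0.00148 by limma). COL1A2 exceeded COL1A1 in both pools, at 2.21 and 1.78 against 0.089 and 0.28 RPKM. In fibroblasts COL1A1 was slightly above COL1A2, at ratios of 1.16 and 1.02. The pool values of COL1A1 lie under the 0.5 RPKM limit used for ratios. COL1A1, COL5A2 and COL6A1 changed by -9.28 ± 0.25, -7.00 ± 0.36 and -8.69 ± 0.70 (adjusted p = 3.39e-06, 9.8e-06 and 3.72e-05 by limma). COL4A1 and COL4A2 changed by -2.73 ± 0.33 and -3.01 ± 0.37 (adjusted p = 7.07e-05 and 8.49e-05 by limma). COL15A1 changed by -4.00 ± 0.19 (adjusted p = 8.51e-06 by limma).

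The third comparison set P10 stem cells against the blastocysts from which such lines come, and it shares the P10 libraries with the first and the pools with the second. COL2A1, COL18A1, COL5A2, COL15A1, COL4A5 and COL26A1, all under 0.1 RPKM in both pools, stood at 16.3 RPKM or more in both P10 libraries. In all, 27 genes were called higher (93.1%, where 73% of all features were), 1 was called lower, COL12A1 (7.33% of all features), and COL8A2 was not called (adjusted p = 0.0756 by limma with Benjamini-Hochberg adjustment). In either direction 80.3% of all features were called. With 26 of the 29 members under 1 RPKM in both pools, most passed the filter through other groups. Few could thus have been called lower at P10, and these counts cannot be read against all features. Relative to the median gene, at 1.43, the median change of these same filtered genes was 1.03. COL5A3, COL8A1, COL9A3 and COL14A1, although called higher, stood below the median gene, at -0.25, -0.18, -0.18 and -0.57. Of all calls 90.9% were higher, against 69.3% without the 2 dominant features in the scaling, 56.5% with the median of ratios and 49.7% with quantile normalization. Under all of these 18 genes stayed higher, while COL1A2, COL4A1, COL5A3, COL6A1, COL6A3, COL7A1, COL8A1, COL14A1 and COL27A1 lost the call in at least 1. Of these 9, all but COL4A1 and COL27A1 also lost it without 1 library, COL1A2, COL5A3, COL6A1, COL6A3, COL7A1, COL8A1 and COL14A1 without either pool.

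The largest changes were 5.12 ± 0.19 for COL2A1 (adjusted p = 5.69e-06 by limma), 4.66 ± 0.29 for COL18A1 (adjusted p = 1.27e-05) and 4.28 ± 0.36 for COL5A2 (adjusted p = 2.31e-05). COL1A1 changed by 3.90 ± 0.25 (adjusted p = 1.24e-05 by limma), COL15A1 by 3.70 ± 0.19 (adjusted p = 8.32e-06) and COL4A5 by 3.75 ± 0.26 (adjusted p = 1.4e-05). The type IV chains COL4A1 and COL4A2 changed by 1.03 ± 0.33 and 2.15 ± 0.37 (adjusted p = 0.000452 and 0.000144 by limma), the former lost with quantile normalization. COL12A1 changed by -3.55 ± 0.76 and was called (adjusted p = 0.0357 by limma). Without any 1 of the 4 libraries compared it was not, at adjusted p = 0.0906 to 0.256, and all 4 kept the negative sign.

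Chains of one trimer were also compared as ratios of RPKM, a per-length unit, within each library. The standard type I molecule holds 2 alpha 1 chains and 1 alpha 2 chain. COL1A1 over COL1A2 was 1.16 and 1.02 in fibroblasts, 9.70 and 2.28 at P10, and 2.36 to 3.73 later, so all 10 stem cell libraries exceeded both fibroblast lines. COL4A1 over COL4A2 was 2.42 and 1.89 in fibroblasts and 1.07 to 1.34 in stem cells, without overlap. COL6A1 over COL6A2 was 2.07 and 1.94 in fibroblasts and 0.369 to 1.24 in stem cells, again without overlap. COL6A1 over COL6A3 was 3.51 in both fibroblast lines and 1.27 to 2.47 in stem cells. These ratios carry no test. The later libraries come from another file set than the fibroblasts, so their ratios are only set side by side.

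COL4A5 over COL4A6 was 2.39 to 2.70 across the 10 stem cell libraries, although COL4A5 itself spanned 12.7 to 42.1 RPKM there. COL5A2 over COL5A1 moved more, from 6.59 and 5.02 at P10 to 2.05 to 5.47 later. In the RefSeq order of protein-coding genes (assembly ARS-UCD2.0), 7 pairs of members are direct neighbours: COL4A1 and COL4A2, COL4A3 and COL4A4, COL4A5 and COL4A6, COL6A1 and COL6A2, COL6A5 and COL6A6, COL3A1 and COL5A2, and COL9A1 and COL19A1. COL4A5 and COL4A6 were both called higher at P10 than in fibroblasts and than in blastocysts. COL9A1 and COL19A1 did not: COL9A1 ranged from 3.04 to 5.90 RPKM in stem cells, and COL19A1 was listed at 0 in 9 of these 10 libraries and at 0.025 in the other.

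**Figure D3:**
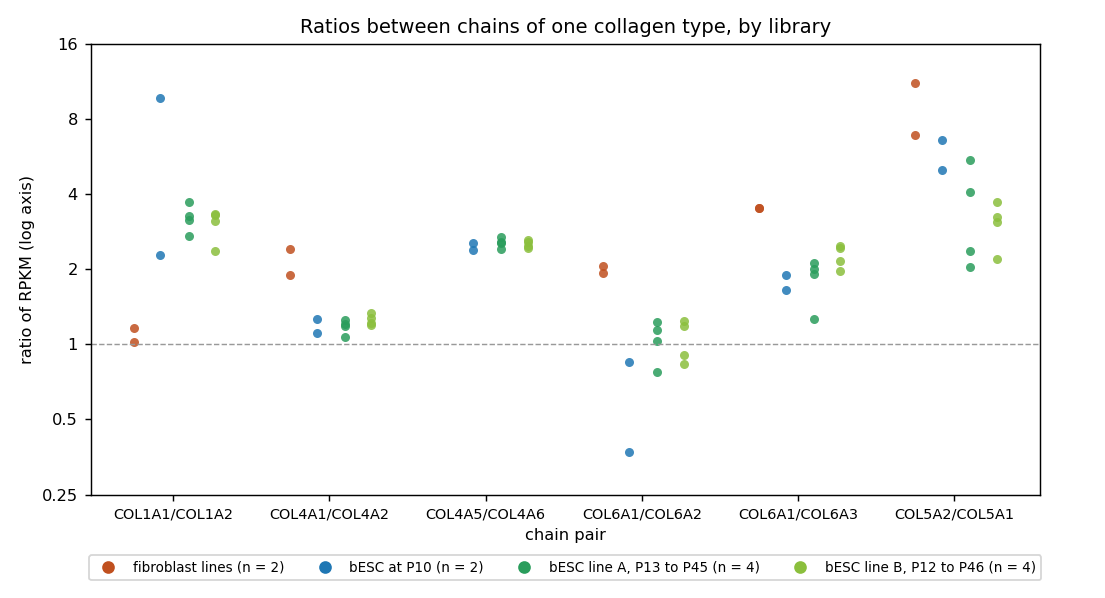
Ratio of RPKM between chains of 1 collagen type on a log axis, 1 point per library, for fibroblasts and stem cells. Blastocysts are left out because their values are near 0. The stem cell points lie above the fibroblast points for COL1A1 over COL1A2 and below them for COL4A1 over COL4A2 and COL6A1 over COL6A2, and the COL4A5 over COL4A6 points stay between 2.39 and 2.70.

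The 2 stem cell lines differed at P10 in part of the collagens. With 1 library each there is no test. Of 28 collagen genes with at least 1 RPKM in either library and 0.1 in both, 25 were higher in line B, where 50.2% of 11330 such features were. By at least 3-fold, 9 were higher, or 32.1%, against 4.18% of all features, and none was lower by as much. COL6A3 was 10.1-fold higher in line B, COL6A1 8.81-fold, COL1A2 6.92-fold and COL3A1 4.48-fold. COL2A1 was 1.15-fold and COL5A2 1.14-fold higher, and COL15A1, COL9A2 and COL26A1 were lower, at ratios of 0.814, 0.890 and 0.892. Of 16 fibroblast and mesenchyme markers passing the same limits, 15 were higher in line B and 8 by at least 3-fold, with a median ratio of 3.01; TAGLN was lower, at 0.537. The median ratio was 1.57 for the collagens and 1.00 for all features. The part of fibroblast or feeder RNA in the gap between lines was not tested.

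**Figure D4:**
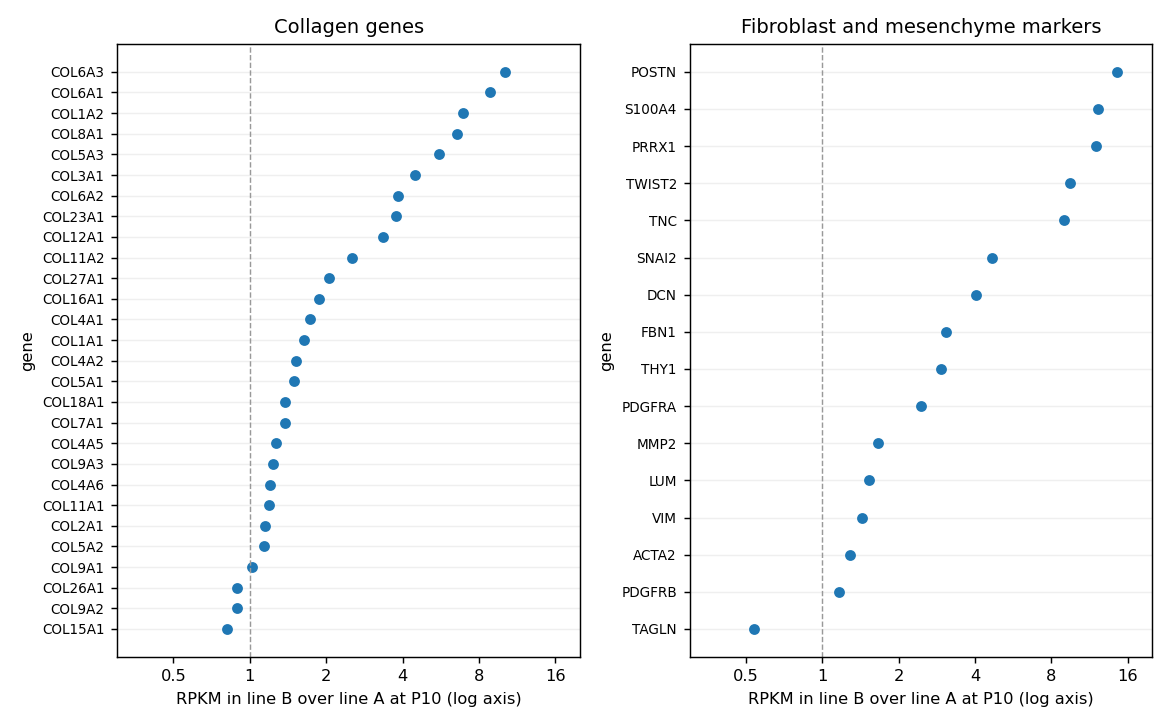
RPKM in line B over line A at P10 for collagen genes (left) and fibroblast and mesenchyme markers (right), 1 library per line, on a log axis with the dashed line at 1. The type VI chains COL6A3 and COL6A1 head the left panel at 10.1 and 8.81, and markers such as POSTN and PRRX1 reach similar ratios on the right.

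The 8 later libraries, P12 to P46, were compared between lines and along passages. COL2A1, COL18A1, COL1A1 and COL15A1 were the most abundant collagens in 7 of the 8, with COL5A2 in place of COL15A1 in line A at P13, and no gene was called in either contrast. Of 30 genes tested by limma, none passed the adjusted threshold between lines, where 0.0157% of 12765 features did. COL11A2 alone had an unadjusted p under 0.05, against 5.91% of all features, with 0.42 ± 0.13 higher values in line B (adjusted p = 0.733 by limma). For the slope none was called, as among all features, and COL23A1, COL7A1 and COL6A1 had an unadjusted p under 0.05, against 3.87% of all features. COL23A1 had a slope of 0.20 ± 0.05 per 10 passages (adjusted p = 0.961 by limma). The difference of slopes was called for none, with none under an unadjusted p of 0.05, against 0.65% of all features. A p that misses the threshold does not show that the lines are alike.

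Some members were steadier than others over these 8 libraries. COL11A1 varied least, from 11.6 to 13.4 RPKM (coefficient of variation 4.79%), and COL1A1 ranged from 68.8 to 89.8 (8.98%). Among genes at 1 RPKM or more in all 8, COL9A2 spread widest, from 2.03 in line A at P23 to 9.38 in line A at P13 (60.9%), followed by COL3A1 with 45.2% and COL6A3 with 44.3%. Type VI and type III chains peaked in line A at P35, where COL3A1 was 54.1 and COL6A3 8.65 RPKM. So did COL1A1, COL4A1, COL4A2, COL5A1, COL16A1 and COL23A1, and the summed collagen RPKM was highest there, at 712.

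COL5A2, COL4A5 and COL4A6 were high and low in the same libraries. COL4A5 measured 27.1, 12.7, 25.1 and 15.4 RPKM in line A at P13, P23, P35 and P45, and 18.3, 17.7, 31.1 and 15.1 in line B at P12, P24, P35 and P46. COL4A6 measured 10.6, 5.25, 9.30 and 6.03 RPKM in line A and 7.39, 6.90, 11.8 and 6.20 in line B. COL5A2 measured 61.9, 19.8, 53.9 and 25.9 in line A and 29.2, 35.3, 45.6 and 24.0 in line B. For all 3, the highest libraries were line A at P13 and P35 and line B at P35, and the lowest was line A at P23. The same libraries were also the highest for COL5A1, COL6A2, COL16A1 and COL26A1, whose lowest library was another one. High values there were thus not particular to COL5A2, COL4A5 and COL4A6. No test was run on this shared order.

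The multiplexins did not share this order. COL15A1 measured 55.4, 81.0, 73.7 and 91.9 RPKM in line A and 62.2, 75.5, 51.4 and 75.2 in line B. COL18A1 measured 82.6, 125, 103 and 119 in line A and 99.6, 111, 111 and 123 in line B. The lowest libraries were line B at P35 for COL15A1 and line A at P13 for COL18A1. COL2A1 measured 123, 83.7, 92.7 and 85.7 RPKM in line A and 107, 110, 144 and 91.1 in line B, highest in line B at P35 and lowest in line A at P23.

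Beside these values, the summed RPKM of 10 hypoxia response genes was 455, 1626, 826 and 1759 in line A and 1271, 732, 630 and 1454 in line B. It was lowest in line A at P13 and line B at P35, then in line B at P24, which was not among the 3 highest libraries for COL4A5, COL4A6 or COL5A2. P4HA1, the catalytic subunit of the prolyl hydroxylase that stabilises collagen helices and a known hypoxia target, measured 12.3, 37.5, 22.9 and 38.7 RPKM in line A and 25.3, 21.2, 19.5 and 36.5 in line B. Fibroblast markers summed to 1016 to 1518 with the highest value in line B at P35. The trophectoderm markers summed to 236 and 341 in line A at P13 and P35 and to 537 to 790 in the other 6, and the smooth muscle markers to 32.2 and 39.8 against 73.4 to 90.9. The part of these lists in the collagen values was not tested.

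**Figure D5:**
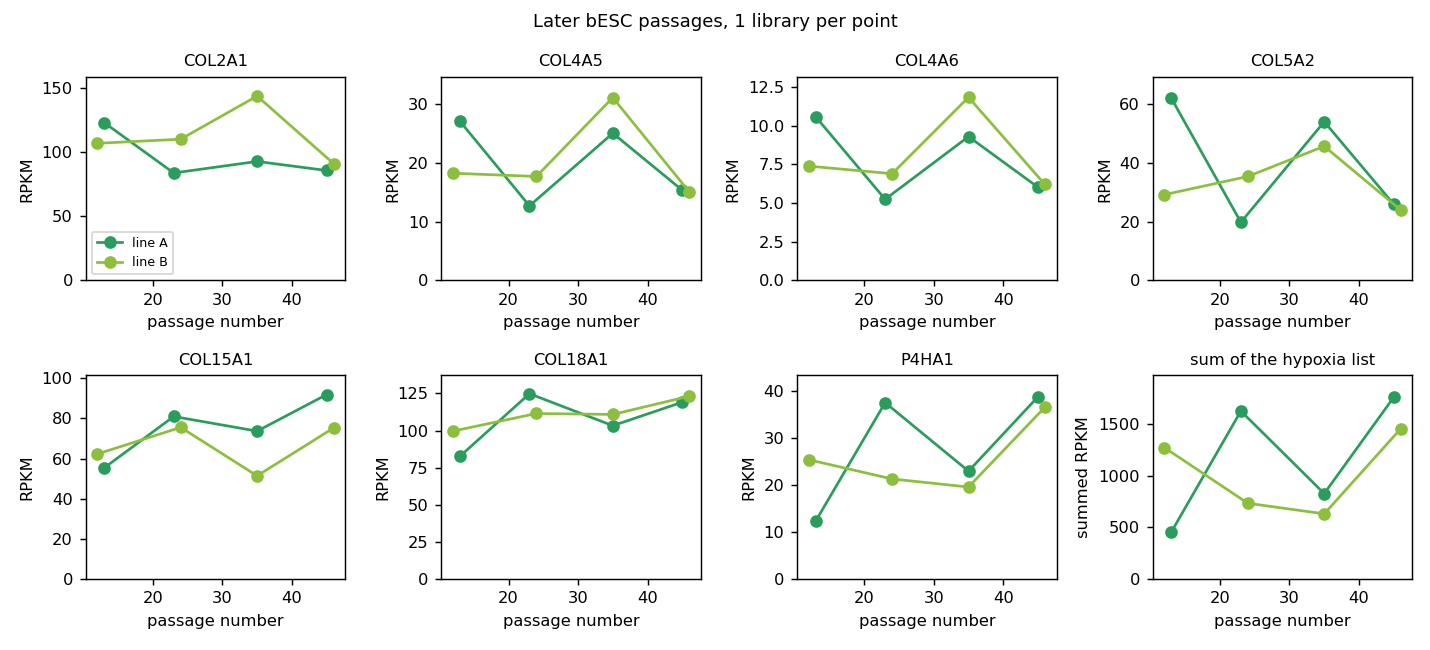
RPKM of 6 collagen genes, of P4HA1 and the summed RPKM of the hypoxia list against passage number in the later libraries of lines A and B, 1 library per point, with linear axes from 0. COL4A5, COL4A6 and COL5A2 are high in line A at P13 and P35 and in line B at P35, where the hypoxia sum is 455, 826 and 630; line B at P24, with a sum of 732, is not among the 3 highest for any of these genes, and COL15A1 is lowest in line B at P35.

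P10 and later values come from separate file sets, so they were set side by side with no test; the median gene stood at -0.09 log2 units at P10 relative to later. Of 30 members at 1 RPKM or more in 2 of these libraries, 7 stood higher in all 8 later libraries than in both P10 libraries, where 26.4% of 10726 features did: COL1A1, COL5A3, COL7A1, COL9A1, COL14A1, COL15A1 and COL18A1. COL4A5 and COL4A6 stood lower in all, where 9.78% did, at 33.1 and 42.1 RPKM at P10 against 31.1 or less later for COL4A5, and at 13.8 and 16.5 against 11.8 or less for COL4A6.

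Collagen chains need enzymes and chaperones to become fibrils, and 61 such genes and receptors were followed. Of 49 tested, 7 were called higher at P10 than in fibroblasts and 34 lower (35.4% and 21.9% of all features), by limma with Benjamini-Hochberg adjustment. Among 20 folding and modification genes, 17 were lower. SERPINH1, the collagen chaperone HSP47, measured 372 and 470 RPKM in fibroblasts, 165 and 164 at P10, 1.25 and 0.942 in blastocysts and 208 to 236 later, a change of -1.57 ± 0.19 (adjusted p = 0.00117 by limma). P4HA2, a prolyl hydroxylase subunit, measured 153 and 209 RPKM in fibroblasts and 4.63 and 4.30 at P10, a change of -5.27 ± 0.27 (adjusted p = 3.69e-05 by limma). P4HA1 and the lysyl hydroxylase PLOD2 changed by -3.28 ± 0.34 and -3.83 ± 0.43 (adjusted p = 0.000494 and 0.000614 by limma). The crosslinking enzyme LOX measured 176 and 336 RPKM in fibroblasts, 2.70 and 4.39 at P10 and 10.0 to 18.8 later, a change of -6.01 ± 0.34 (adjusted p = 4.86e-05 by limma).

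LOXL4, another crosslinking enzyme, ADAMTS2, which removes the N-propeptide, the integrin chain ITGA11 and the basement membrane linker NID2 were lower too, by -4.04 ± 0.22, -3.90 ± 0.20, -3.65 ± 0.20 and -4.40 ± 0.27 (adjusted p = 4.43e-05, 3.89e-05, 4.86e-05 and 6.55e-05 by limma). The integrin beta chain ITGB1 measured 385 and 533 RPKM in fibroblasts and 92.2 and 133 at P10, a change of -2.25 ± 0.27 (adjusted p = 0.000993 by limma). The collagen receptor DDR1 went the other way, with 6.75 and 6.11 RPKM in fibroblasts and 71.9 and 69.6 at P10, a change of 3.04 ± 0.22 (adjusted p = 7.6e-05 by limma). Also higher were the basement membrane proteoglycan AGRN (3.76 ± 0.20, adjusted p = 3.34e-05), the laminin chain LAMA5 (0.92 ± 0.20, adjusted p = 0.00276) and TMEM38B, an endoplasmic reticulum ion channel needed for collagen processing (1.92 ± 0.20, adjusted p = 0.000243).

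Between blastocysts and fibroblasts, 0 of the 49 were called higher and 43 lower (11% and 63.4% of all features), with 43 at an unadjusted p under 0.05 (76.2% of all features). Under the 3 other scalings 4 to 6 were called higher. PCOLCE, the procollagen C-proteinase enhancer, changed by -6.33 ± 0.30, SERPINH1 by -6.49 ± 0.19, LOX by -6.74 ± 0.34 and the chaperone FKBP10 by -5.60 ± 0.21 (adjusted p = 9.2e-06, 3.39e-06, 9.75e-06 and 5.24e-06 by limma). LOXL1, P3H1 and ITGB1 changed by -4.43 ± 0.18, -4.00 ± 0.17 and -3.78 ± 0.27 (adjusted p = 5.42e-06, 6.99e-06 and 1.71e-05 by limma), and ADAMTS2 was listed at 0 in both pools (adjusted p = 9.2e-06 by limma). Against blastocysts, P10 had 38 of the 49 called higher and 0 lower (73% and 7.33% of all features), and 4 to 7 were lower under the 3 other scalings. At an unadjusted p under 0.05 stood 39 (81.5% of all features). The share called higher is near that of all features. LAMA1, P3H2, ADAMTS2 and TLL2, although called higher, stood below the median gene, at -0.12, -0.16, -0.05 and -0.06. SERPINH1 changed by 4.88 ± 0.19, LOXL1 by 3.62 ± 0.18, FKBP10 by 3.57 ± 0.21 and the prolyl 3-hydroxylase P3H1 by 2.47 ± 0.17 (adjusted p = 5.69e-06, 7.54e-06, 1.04e-05 and 1.15e-05 by limma). DDR1 and AGRN, higher at P10 than in fibroblasts, were also higher than in blastocysts, by 3.40 ± 0.22 and 3.02 ± 0.20 (adjusted p = 1.16e-05 and 1.15e-05 by limma), as was ITGB1, by 1.48 ± 0.27 (adjusted p = 9.38e-05). P4HA1 measured 4.04 and 6.24 RPKM at P10 and 2.46 and 5.57 in blastocysts, which overlapped, and was not called. Among the later libraries, 0 of 49 were called between lines or along passages, where 0.0157% and 0% of all features were, with 4 and 3 at an unadjusted p under 0.05, where 5.91% and 3.87% of all features were.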

How the data were processed

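Total RNA libraries (TruSeq RNA kit) of 14 cattle samples were used, 1 deposited table each. The deposited values are RPKM per gene, a unit that the names of the authors' files give and the file headers do not; UMD3.1 and edgeR are named in the submitters' processing notes without a role. Which aligner, counter and annotation were used is not given in the sources used here. The 6 control and P10 files share one feature list and the 8 later files another, so tests were run within each set. Rows with a date, an unreadable name or a blank value were left out. Reads could not be recovered from RPKM without gene lengths, so no count test was run and no counting interval is given; relative depth came from ratios of low values.

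Features reaching 1 RPKM in 2 or more libraries were fitted as log2(RPKM + 1) with limma 3.58.1 in R 4.3.3 (empirical Bayes with trend, two-sided, Benjamini-Hochberg over all features, call at adjusted p under 0.05); the method was tested on simulated data. The first fit held P10, blastocysts and fibroblasts as 3 groups with a common spread, the second the 8 later libraries with line and passage. Small values are compressed by the pseudocount. Summaries were made in Python 3.11.15 (numpy 2.4.6, pandas 2.3.3, matplotlib 3.10.9). Ratios of chains were taken where both exceeded 0.5 RPKM, and symbols and neighbours came from RefSeq (43 of 43 matched).

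The members and lists (61 assembly and receptor genes, and cell type and hypoxia markers) were chosen with earlier results of these data known. Values in each library of the first set are given for members reaching 10 RPKM; among assembly genes the rule names up to 6 per comparison and direction with the smallest adjusted p and a mean of 10 RPKM or more, plus SERPINH1, P4HA1, PLOD2, LOX and ITGB1 (PXDN, also in the rule, was not analysed here). Ratio sets and later passages shown value by value were chosen after their values were seen. Alternatives changed the pseudocount, filter, scaling, block, slope model and P10 term, or left out libraries; leaving one out kept the tested features. Of the other marker lists, summed RPKM was, in blastocysts, fibroblasts and stem cells, 666 to 958, 12.2 to 16.1 and 158 to 790 for trophectoderm, 16.2 to 19.7, 7.65 to 10.2 and 131 to 264 for hypoblast and endoderm, 0.506 to 0.609, 0.451 to 0.834 and 2.65 to 5.17 for endothelium, 0.069 to 0.277, 67.8 to 86.5 and 15.8 to 90.9 for smooth muscle, and 4.02 to 6.24, 67.6 to 139 and 140 to 214 for neural genes.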

Additional observations from a re-analysis of the deposited data

How the results depend on the processing

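No called collagen gene reversed its direction in any alternative run. Before subtraction of the median gene, some fitted changes changed sign with scaling. They were called neither in the main fit nor under that scaling. At P10 against fibroblasts these were COL15A1 (0.18 without the 2 dominant features), COL27A1 (-0.06 with the median of ratios, -0.29 with quantile normalization) and COL7A1 (-0.14 with quantile normalization). At P10 against blastocysts COL8A2 changed sign, and between blastocysts and fibroblasts COL4A5, COL4A6, COL9A2, COL9A3 and COL11A2 did, all with quantile normalization. Against fibroblasts at P10, a filter at 5 RPKM left 5 collagen and 4 assembly genes called higher, because fewer genes were tested. Against blastocysts, the single collagen gene called lower was lost with no filter (0 called) and ranged from 0 to 1 when 1 library was left out. Assembly genes called higher in blastocysts than in fibroblasts numbered 4 with median-of-ratios scaling, 6 with quantile normalization, 4 without the 2 dominant features and 1 at a pseudocount of 0.1, and 0 to 1 with a library left out. Those lower at P10 than in blastocysts numbered 6, 7 and 4 under the same scalings and 0 to 1 with a library left out. The cause of these shifts was not tested. Leaving out a library gave 13 to 16 collagen genes lower at P10 than in fibroblasts and 20 to 26 higher than in blastocysts. Later contrasts gave 0 collagen calls in all alternatives run.

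The letters A and B do not pair the first set (correlations of deviations 0.187, -0.079 and -0.099). With the letter as replicate block, 9 collagen genes were higher and 14 lower at P10 than in fibroblasts, 20 were lower in blastocysts than in fibroblasts, and 25 were higher and 1 lower at P10 than in blastocysts. With the order of passage as replicate block (correlations 0.166, 0.101, 0.29 and 0.572), 0 collagen genes were called between lines and calls over all features went from 2 to 5. Depth is unknown in reads, so genes under 1 RPKM cannot be ranked, and 2 libraries a group limit every comparison with controls.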
